A study of Arabidopsis thaliana with 4 samples.

Results

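The 142 expressed pseudogene and transposon rows were the rows of an Arabidopsis thaliana count table whose ID carries a transcript suffix and whose raw counts summed to at least 100 over 12 libraries. They were 142 of 33610 rows in all, of 3911 rows with a suffix, and of 887 such rows with at least 1 count. The TAIR10.1 annotation gives 140 of them as pseudogenes and the other two, MUG3 and MUG7, as protein-coding genes. The 12 libraries came from 2-week-old Col-0 seedlings grown on MS-based medium. Of the 4 groups, the first was a lincRNA11195 mutant after 12 h of abscisic acid (ABA), and the second the same mutant untreated. lincRNA11195 is a noncoding transcript from between genes. The third was wild type after 12 h of ABA and the fourth wild type untreated. Each held 3 biological replicates per the series text. All groups share the Col-0 background, and the sources used here give no ABA dose, no kind of mutant allele and no number of mutant lines. The transcript lincRNA11195 was not matched to a row by its ID and is not analysed here.

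Plant genomes keep most transposable elements silent through DNA methylation and heterochromatin, and their relics are often annotated as pseudogenes. Counts in such a row can include reads of a similar or an overlapping locus. Sadhu elements are non-coding retroposons of Arabidopsis without a gene for their own movement. MUSTANG genes descend from the transposases of Mutator-like elements and were taken over by the plant as ordinary genes. ABA is the hormone of the drought response, and it reshapes the transcription of much of the seedling genome.

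The annotation text named 9 rows as Sadhu elements and 7 as MUSTANG genes. It named 5 others, CYTOSLEEPER, EXT11 and a pseudogene each of the Ulp1 protease family, a non-LTR retroelement protein and replication protein A1. The other 121 rows have no name there and are given by locus, with no role. The grouping into Sadhu and MUSTANG was made after this text had been read. The members were chosen by their raw counts summed over all 12 libraries, so their levels describe the choice and are not a result. The rows just inside the limit, AT3G21030, AT4G20730 and AT5G41710, had 103 counts each. Those just outside, AT2G36040, AT5G35420 and AT4G04293, had 97, 96 and 96.

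The rows were long and mostly of 1 exon. The exonic length had a median of 2590 bases over a range of 377 to 15195, against a median of 1763 over 21195 tested rows with an annotation. GC content had a median of 41.5% over a range of 33.3% to 52.1%, against 41.1%. A single exon was annotated for 127 of the 142. They lie on all nuclear chromosomes, with 32, 19, 35, 19 and 37 on chromosomes 1 to 5. At least 100 bases at 95% identity or more to another annotated locus were found in 39 rows, and over at least 80% of the length in 16. Reads of such rows can be shared with the similar locus. Another annotated locus overlapped 27 rows, 11 on the same strand and 17 on the other, and the sources used here do not say whether counting went by strand.

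A few rows held much of the signal. AT2G06950 had 25627 counts over the 12 libraries, AT1G35115 had 21265 and AT3G28160 had 16959, together 21.4% of the counts in the 142 rows. Over 89.7% of its length AT1G35115 is similar to other annotated loci, with its best match in the pseudogene AT2G15650 at 96.78% identity. The median row had 660 counts, and 132 of the rows had counts in every library. Per length, SADHU1-1 was highest at 46.7 CPM (counts scaled to library size with TMM factors) per kb of exon, averaged over the 12 libraries. AT3G28160 followed at 33.6 CPM per kb, AT1G35115 at 27.5 and AT2G06950 at 26.0, over a range of 0.0513 to 46.7 and a median of 1.25 CPM per kb. In 16 rows fewer than 75 counts lay outside the group where the row was highest, and SADHU10-1, AT4G20730, AT1G65485, AT1G58889 and AT1G59265 are among them. Such rows entered through the group where they are high, so their differences from that group are given as a description, with no test, and counts are also given without the 16.

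Library totals ranged from 14691544 to 22477294 counts. The 142 rows held 0.132% ± 0.0203 of them in ABA-treated mutant, 0.131% ± 0.0135 in untreated mutant, 0.133% ± 0.00546 in ABA-treated wild type and 0.119% ± 0.0142 in untreated wild type (SD, n = 3 each). The difference was 0.0134 percentage points for ABA minus untreated in wild type (exact permutation p = 0.2) and 0.0013 in the mutant (exact p = 0.9). It was 0.0117 points for mutant minus wild type untreated (exact permutation p = 0.5) and -0.0004 under ABA (exact p = 0.9). The tests are two-sided over 3 against 3 libraries, where the smallest possible p is 0.1, so none could pass 0.05. In bulk tissue, fewer cells of a type and less RNA per cell cannot be told apart.

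**Figure D1:**
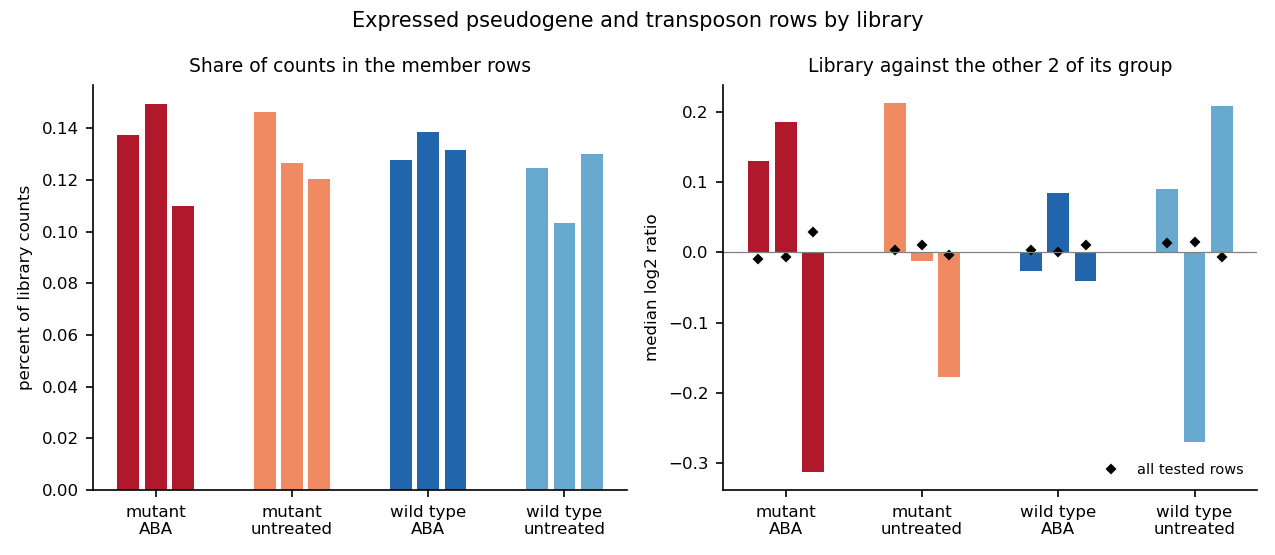
Left, the percent of each library's counts that fell in the 142 rows, with 1 bar per library. Right, the median over the rows of the log2 ratio between a library and the other 2 of its group (bars) and the same median over all tested rows (diamonds). Mutant ABA replicate 3 and wild type untreated replicate 2 lie lowest on the right, at -0.31 and -0.27, while the diamonds stay near 0.

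Libraries of the same group differed in these rows. Each library was set against the mean log2 level of the other 2 of its group. In mutant ABA replicate 3 the median row was 0.31 lower than that mean, and 47 of the 142 rows lay above it. In wild type untreated replicate 2 the median row was 0.27 lower, and 53 rows lay above the mean. Over all tested rows the same medians were 0.03 and 0.01 (log2). The share of counts from the organelle genomes was the lowest of its group in both libraries, at 0.0381% against 0.053% and 0.0595% in mutant ABA and at 0.0852% against 0.1097% and 0.13% in wild type untreated. Its part in the results was not tested. The median coefficient of variation between replicates was 16.6% to 22.3% in the 4 groups, against 13.4% to 14.9% for all tested rows, both over rows at 0.5 CPM or more. One row, AT2G01840, had 235 of its 236 counts in mutant untreated replicate 2 and did not pass the filter on low counts, so 141 rows were tested. RBCS1A, a leaf gene for the small subunit of Rubisco, averaged 3716 ± 1028, 5778 ± 1960, 5155 ± 234 and 17829 ± 2013 CPM in mutant ABA, mutant untreated, wild type ABA and wild type untreated (SD, n = 3 each). The seed genes CRA1 and OLEO1 stayed at or under 0.233 CPM and the flower gene AG at or under 0.547 CPM in every library. The leaf marker was thus present in every group of the labelled seedlings, and highest in untreated wild type.

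Most Sadhu elements stood highest in untreated wild type seedlings. Without SADHU10-1, which entered through its high counts there, 6 of 8 fell after ABA in wild type and none rose, at a median log2 fold change of -1.31. In the mutant without ABA, 7 of 8 were lower than in wild type and none was higher, at a median of -1.26. With a correction of each library for length and GC content these numbers were 4 of 8, at a median of -0.51, and 2 of 8, at -0.27. Both comparisons share the 3 untreated wild type libraries. Over all tested rows, 53.4% were called after ABA in wild type and 23.6% between the untreated genotypes, at medians of -0.03 and 0.01. In the mutant 3 of the 8 fell with ABA and none rose, at a median of -0.73, against 42.5% of all rows called and a median of -0.004. A row was called when its adjusted p in edgeR's quasi-likelihood test over 21322 rows was under 0.05. Of 8 marker genes for leaf, root, seed and flower, 5 passed the filter, the leaf genes RBCS1A and LHCB1.3 and the root genes COBL9, IRT1 and NRT2.1. All 5 fell with ABA in wild type, at a median of -2.77, 2 of them (COBL9 and IRT1) fell in the mutant, and both leaf genes were lower in the untreated mutant (-1.63 and -3.64). The share of counts from organelle genes was 0.0502% ± 0.011 in ABA-treated mutant and 0.0666% ± 0.0133 in untreated mutant, and 0.0498% ± 0.00328 in ABA-treated wild type and 0.108% ± 0.0224 in untreated wild type (SD, n = 3 each). The part of these shifts in the Sadhu values was not tested.

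**Figure D2:**
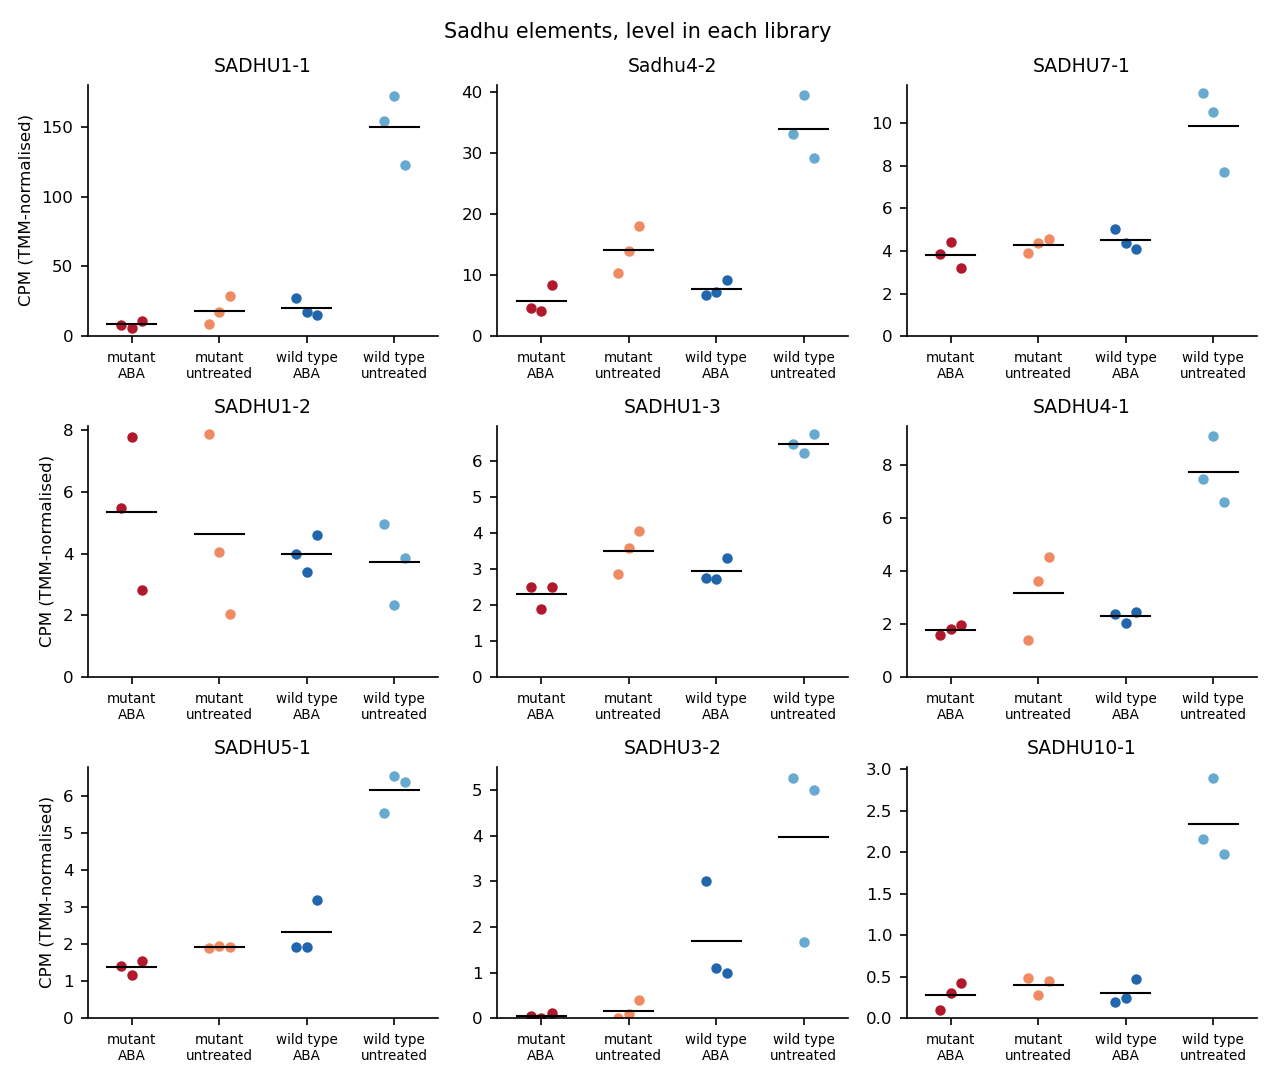
Level of the 9 Sadhu elements in TMM-normalised CPM, with 1 point per library and the group mean as a bar, on an axis of its own for each element. In 7 of the 9 panels the untreated wild type points lie above all points of the other 3 groups. SADHU3-2 is near 0 in both mutant groups, and the groups of SADHU1-2 overlap.

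SADHU1-1 had 8.32, 6.1 and 11.0 CPM in ABA-treated mutant, and 8.64, 17.4 and 28.7 CPM in untreated mutant. It had 27.3, 17.7 and 15.2 CPM in ABA-treated wild type, against 154, 172 and 123 CPM in untreated wild type. Each untreated wild type library was thus far above every other library. The log2 fold change was -2.90 ± 0.37 (SE) for ABA in wild type (adjusted p = 4.03e-05) and -3.03 ± 0.37 for the untreated mutant against wild type (adjusted p = 0.000156). With ABA in the mutant it was -1.12 ± 0.37 (adjusted p = 0.026). That call was lost without mutant untreated replicate 2 (-1.16, adjusted p = 0.0507), mutant untreated replicate 3 (-0.63, 0.163), mutant ABA replicate 1 (-1.11, 0.0715) or mutant ABA replicate 2 (-0.93, 0.0989). The locus AT2G10405 overlaps SADHU1-1 on the other strand, and its part in these counts was not tested.

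Sadhu4-2 had 4.61, 4.22 and 8.46 CPM in ABA-treated mutant, and 10.3, 14.0 and 18.0 CPM in untreated mutant. It had 6.8, 7.22 and 9.29 CPM in ABA-treated wild type, against 33.2, 39.5 and 29.2 CPM in untreated wild type. The element fell with ABA in wild type, with a log2 fold change of -2.13 ± 0.27 (adjusted p = 3.62e-05), and in the mutant, with -1.30 ± 0.27 (adjusted p = 0.00207). It was also lower in the untreated mutant than in wild type, at -1.26 ± 0.26 on the log2 scale (adjusted p = 0.00426). The gene AT1G03410, which overlaps it on the other strand, fell with ABA in both genotypes too, with log2 fold changes of -0.83 in wild type and -0.71 in the mutant. A further locus, AT1G04183, overlaps Sadhu4-2 on the same strand.

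SADHU10-1, which held few counts outside untreated wild type, had 0.1, 0.305 and 0.426 CPM in ABA-treated mutant and 0.487, 0.286 and 0.444 CPM in untreated mutant. It had 0.197, 0.239 and 0.473 CPM in ABA-treated wild type, against 2.16, 2.89 and 1.98 CPM in untreated wild type. The 3 lower groups overlapped. Against untreated wild type the log2 fold change was -2.90 ± 0.40 for ABA in wild type and -2.52 ± 0.39 for the untreated mutant, values that the limit on counts favoured. In the mutant the ABA value was -0.54 ± 0.51 and was not called (adjusted p = 0.416). The locus AT3G58875 overlaps SADHU10-1 on the other strand.

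SADHU5-1, SADHU4-1, SADHU7-1 and SADHU1-3 had smaller changes of the same shape. For ABA in wild type their log2 fold changes ran from -1.75 in SADHU4-1 to -1.13 in SADHU7-1, and for the untreated mutant from -1.68 in SADHU5-1 to -0.88 in SADHU1-3. All 4 were called in both, but each lost the call between untreated genotypes with the length and GC correction. SADHU4-1 also lost it without wild type untreated replicate 2 (-1.08, adjusted p = 0.0521). With ABA in the mutant SADHU1-3 fell (-0.61 ± 0.20, adjusted p = 0.024), a call lost without mutant untreated replicate 2 (-0.60, adjusted p = 0.0664), mutant untreated replicate 3 (-0.49, 0.101) or mutant ABA replicate 2 (-0.48, 0.0994). SADHU4-1, SADHU5-1 and SADHU7-1 had -0.84, -0.48 and -0.17 and were not called. The gene AT3G13440, which overlaps SADHU7-1 on the other strand, fell with ABA in wild type too (-0.52, adjusted p = 0.0294). AT3G13440 was not called with ABA in the mutant (-0.04) or between the untreated genotypes (-0.25). The exception among the 9 was SADHU1-2, with 5.46, 7.78 and 2.82 CPM in ABA-treated mutant, 7.85, 4.05 and 2.04 CPM in untreated mutant, 3.99, 3.39 and 4.6 CPM in ABA-treated wild type and 4.96, 2.34 and 3.85 CPM in untreated wild type. It was called in none of the comparisons, and it is the longest of the 9 at 1972 bases and the lowest in GC at 41.4%.

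All 9 Sadhu elements are shorter than the median of the 142 rows, at 889 to 1972 bases, and 8 of 9 are above their median GC content, at 41.4% to 48.8%. With the length and GC correction, SADHU1-1 kept its fall with ABA in wild type and its difference between untreated genotypes, at -1.70 and -1.72. SADHU10-1 had -1.92 and -1.47. Sadhu4-2 kept the fall with ABA in wild type at -1.25 but not the difference between untreated genotypes (-0.33, adjusted p = 0.251). SADHU4-1 and SADHU1-3 likewise kept the first, at -0.86 and -0.51, and not the second (-0.34, adjusted p = 0.328, and -0.22, 0.374). With ABA in the mutant SADHU1-3 then had -0.40 (adjusted p = 0.0653). SADHU5-1 and SADHU7-1 lost both calls, with SADHU5-1 at -0.08 and -0.20 and SADHU7-1 at 0.09 and 0.22. SADHU5-1 also shares 231 bases at 98.7% identity with AT1G18193, a protein-coding gene. The ABA responses of the 9 Sadhu elements differed between the genotypes by a median of 0.90 (log2, mutant minus wild type) without the correction and of 0.15 with it. These medians include SADHU10-1, whose value of 2.36 ± 0.67 without the correction the limit on counts favoured. No element passed edgeR's test of the difference between genotypes, and DESeq2 called SADHU1-1 (1.76, adjusted p = 0.0216). Besides SADHU10-1, the elements with an unadjusted p under 0.05 in edgeR were SADHU7-1, SADHU1-1, SADHU5-1 and Sadhu4-2, each with a more positive value in the mutant. Of the 21322 rows tested, 1983 were more positive and 626 more negative at that limit.

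Of the 7 MUSTANG genes, MUG7 alone was called with TMM factors, all 12 libraries and no block or correction. MUG8 had 42.1, 46.2 and 31.9 CPM in ABA-treated mutant, 40.6, 31.2 and 27.9 CPM in untreated mutant, 35.4, 42.9 and 35.8 CPM in ABA-treated wild type and 29.6, 20.5 and 32.0 CPM in untreated wild type. MUG5 lay between 19.7 and 26.1 CPM over the 12 libraries. None of the 7 was then called after ABA in either genotype or between genotypes under ABA, and their log2 fold changes there lay between -0.39 and 0.48. Over all rows the shares called were 53.4% and 42.5% after ABA in wild type and mutant, 1.79% between genotypes under ABA and 23.6% untreated. MUG8 had 0.48 ± 0.20 for ABA in wild type (adjusted p = 0.058) and was called there with RLE factors (0.49, adjusted p = 0.0493), with DESeq2 (0.49, 0.0418) and without wild type untreated replicate 3 (0.60, 0.0402), mutant untreated replicate 1 (0.48, 0.042) or mutant ABA replicate 3 (0.48, 0.044). For ABA in the mutant MUG8 was called with the length and GC correction (0.29, adjusted p = 0.0498). One, MUG7, was lower in the untreated mutant, with 9.98, 13.9 and 17.5 CPM against 22.7, 17.6 and 22.1 CPM in untreated wild type (log2 fold change -0.59 ± 0.20, adjusted p = 0.0457). The call of MUG7 was close to the limit. It was lost without any 1 of mutant untreated replicates 1 and 2 (-0.41 and -0.55), of the 3 untreated wild type libraries (-0.65 to -0.52), of the 3 mutant ABA libraries (-0.59 each) or of wild type ABA replicate 2 (-0.59). It was also lost with RLE factors (-0.57, adjusted p = 0.0509), the replicate block (-0.59, 0.0649) and the length and GC correction (-0.20, 0.215).

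The answer to ABA was measured in each genotype. In wild type, 30 of 141 rose and 33 fell, 44.7% in all, against 25.2% and 28.2%, 53.4% in all, of the 21322 rows tested. In the mutant, 16 rose and 27 fell, 30.5% in all, against 21.5% and 21.1%, 42.5% in all. Without the 16 rows that entered through 1 group, 25 of 126 rose and 28 fell in wild type, and 12 rose and 24 fell in the mutant. The members were thus called at a share below that of all rows in both genotypes. Their median log2 fold change was -0.04 in wild type and -0.12 in the mutant, against -0.03 and -0.004 over all rows. The same 15 rows rose in both genotypes, which is 93.8% of those in the mutant and 15 of the 30 in wild type. The same 16 fell in both, 59.3% of those in the mutant and 48.5% of those in wild type, and no row was called in opposite directions. The 15 include AT1G58889 and AT1G59265, near-identical copies that are best read as 1 measurement. The same overlap was not counted over all rows, so it is not shown to be particular to these. In the mutant the counts depended on single libraries. The number that rose was 9 without mutant untreated replicate 2, 10 without mutant untreated replicate 3 and 10 without mutant ABA replicate 1. The number that fell was 17 without mutant untreated replicate 3, 15 without mutant ABA replicate 1 and 16 without mutant ABA replicate 2. With wild type untreated replicate 2 and mutant ABA replicate 3 both removed, a setting chosen after seeing the data, 25 rose in the mutant.

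**Figure D3:**
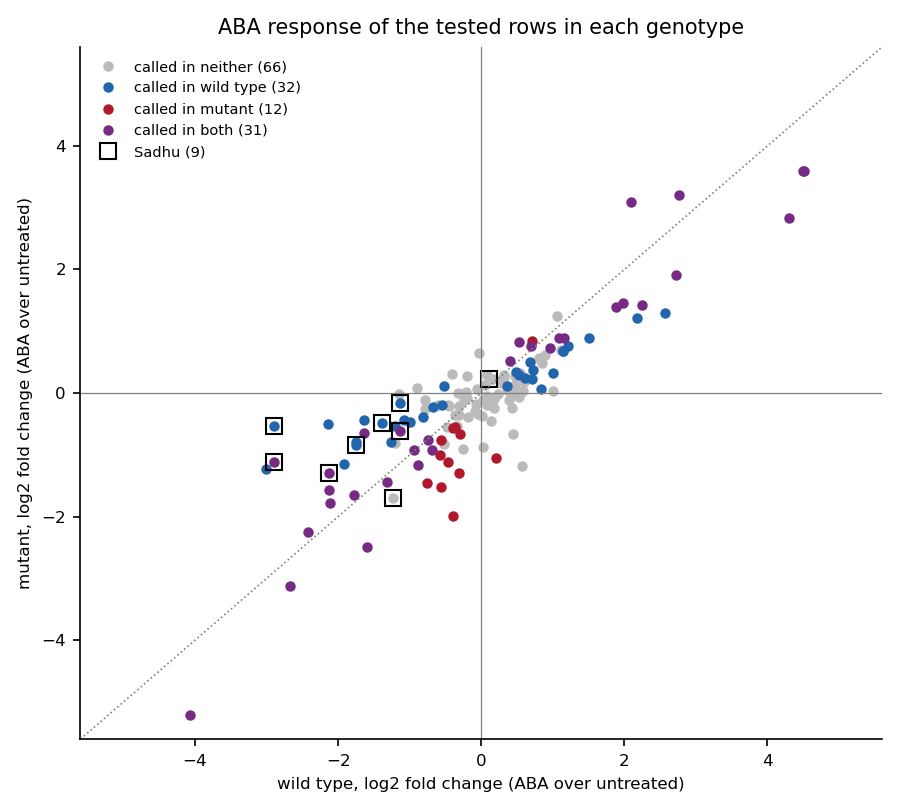
Log2 fold change of ABA over untreated in the mutant (vertical axis) and in wild type (horizontal axis) for the 141 tested rows, which rest on separate libraries. Colours give where the row was called, squares mark the 9 Sadhu elements, and the dotted line marks equal change. Of the rows, 31 were called in both, 32 in wild type alone, 12 in the mutant alone and 66 in neither.

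Among the rows that rose, AT1G47565 had 24.3, 25.3 and 18.1 CPM in ABA-treated mutant against 9.92, 7.68 and 7.29 CPM in untreated mutant, and 21.0, 17.9 and 19.7 CPM in ABA-treated wild type against 4.78, 4.37 and 5.71 CPM in untreated wild type. The ABA and untreated libraries did not overlap in either genotype. Its log2 fold change was 1.45 ± 0.17 in the mutant and 1.98 ± 0.18 in wild type (adjusted p = 3.41e-05 and 2.85e-06). Its tested neighbours AT1G47560 and AT1G47570 were not called in either. AT3G28160, the most abundant of the rows that rose, had 93.3, 98.1 and 76.1 CPM in ABA-treated mutant against 57.1, 46.3 and 41.2 CPM in untreated mutant, and 115, 106 and 83.8 CPM in ABA-treated wild type against 56.3, 35.8 and 51.6 CPM in untreated wild type. It rose by 0.89 ± 0.19 and 1.08 ± 0.19 on the log2 scale. AT5G56747 rose by 0.89 ± 0.18 in the mutant and 1.15 ± 0.19 in wild type.

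Among the rows at low levels, AT5G24915 had 1.85, 1.78 and 0.426 CPM in ABA-treated mutant against 0.243, 0.191 and 0.133 CPM in untreated mutant, and 12.1, 7.12 and 2.58 CPM in ABA-treated wild type against 0.35, 0.185 and 0.541 CPM in untreated wild type. AT5G24915 rose by 2.84 ± 0.79 on the log2 scale in the mutant and by 4.31 ± 0.65 in wild type (adjusted p = 0.0114 and 0.000154). Its right neighbour AT5G24920 fell with ABA in wild type (-0.96, adjusted p = 0.00273), and its left neighbour AT5G24910 was not called. AT5G18633 had 5.26, 4.58 and 1.22 CPM in ABA-treated mutant against 1.4, 0.572 and 1.02 CPM in untreated mutant, and 4.29, 3.49 and 2.19 CPM in ABA-treated wild type against 0.408, 0.246 and 0.841 CPM in untreated wild type. It rose by 1.91 ± 0.52 in the mutant and 2.72 ± 0.58 in wild type, and the call in the mutant was lost without mutant untreated replicate 2 (1.62, adjusted p = 0.0509). Without wild type untreated replicate 3 the value in wild type was 3.31. AT3G28945 rose by 1.39 ± 0.39 in the mutant and 1.89 ± 0.41 in wild type, and its call in the mutant was lost without mutant ABA replicate 1 (1.13, adjusted p = 0.0602) or replicate 2 (1.19, 0.0517). Over 94.5% of its length AT5G18633 matches another annotated pseudogene, AT5G25205, at 98.73% identity in its best match. AT3G28945 likewise matches the pseudogene AT3G27883 over 95.5% of its length, at 96.83% identity in its best match.

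AT1G59265 and AT1G58889 are copies at 99.98% identity over 4428 bases, had equal counts in 11 of 12 libraries and are best read as 1 measurement. AT1G59265 had 1.5, 0.305 and 0.213 CPM in ABA-treated mutant against 0.0608, 0.0954 and 0 CPM in untreated mutant, and 4.04, 1.29 and 0.602 CPM in ABA-treated wild type against 0.0583, 0.0616 and 0.12 CPM in untreated wild type. In wild type 123 counts with ABA stood against 4 untreated, a ratio of 23.9 that the limit on counts favoured. In the mutant 40 counts stood against 3, a ratio of 13.7 with a 95% exact counting interval of 4.36 to 69.1. Such intervals cover counting error only. In the mutant, outside the group where the row is highest, the call (3.60 ± 1.24, adjusted p = 0.0323) was lost without mutant untreated replicate 1 (3.71, 0.0632), replicate 2 (4.41, 0.0596) or replicate 3 (2.99, 0.105), or without mutant ABA replicate 1 (2.23, 0.216).

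**Figure D4:**
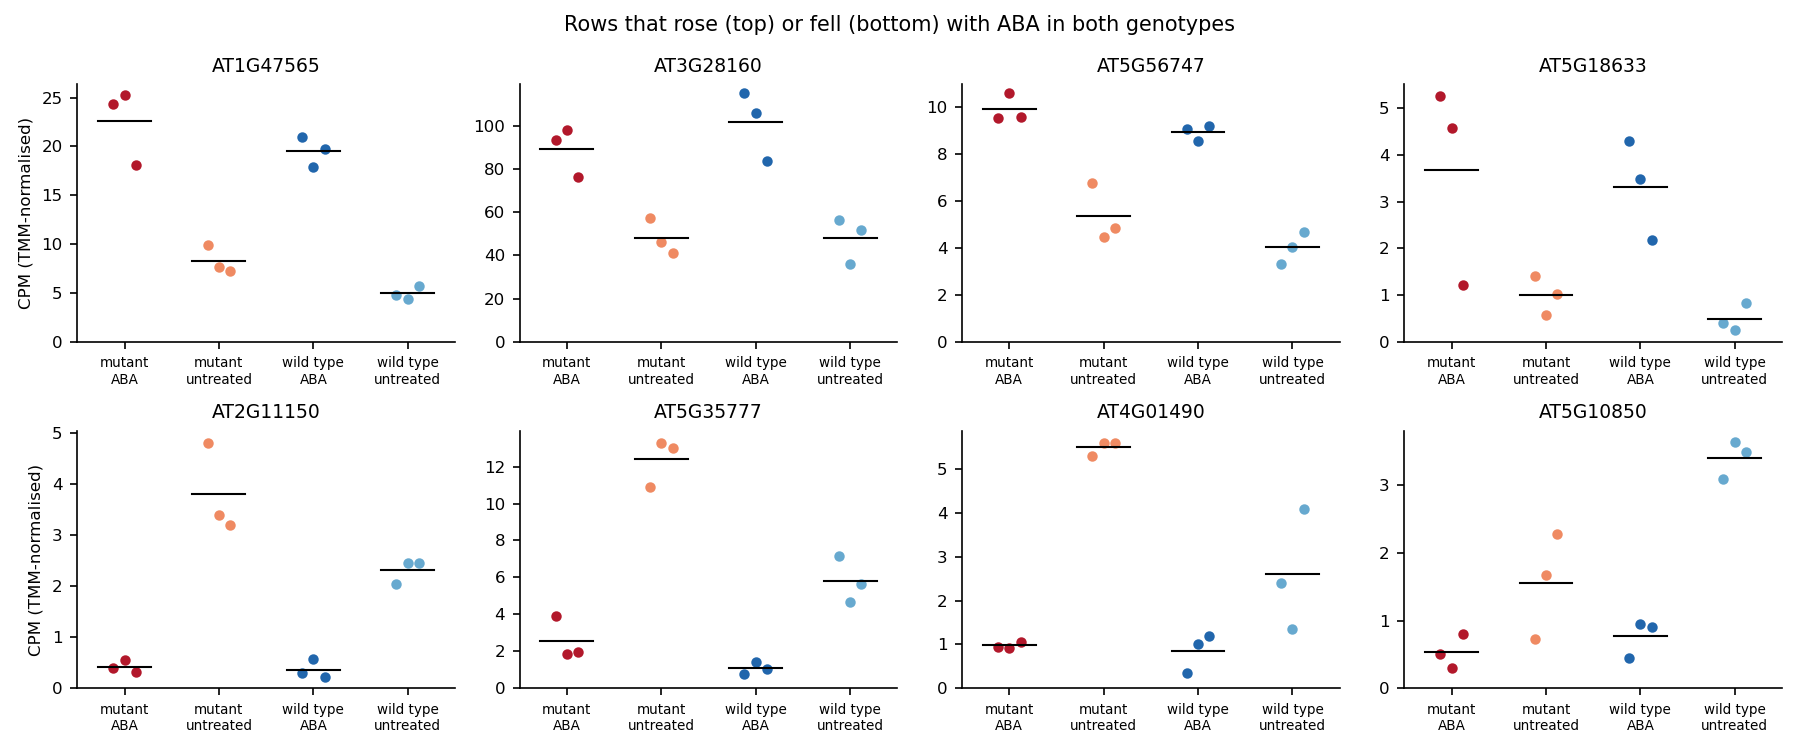
Level in TMM-normalised CPM of 4 rows that rose with ABA in both genotypes (top) and 4 that fell in both (bottom), with 1 point per library, the group mean as a bar and an axis of its own for each row. In wild type the ABA and untreated points do not overlap in any of the 8 panels, and in the mutant they overlap for AT5G18633 and AT5G10850.

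Among the rows that fell, AT2G11150, a pseudogene of a putative replication protein A1, had 0.401, 0.56 and 0.319 CPM in ABA-treated mutant against 4.81, 3.39 and 3.2 CPM in untreated mutant, and 0.296, 0.574 and 0.215 CPM in ABA-treated wild type against 2.04, 2.46 and 2.46 CPM in untreated wild type. It fell, at -3.12 ± 0.33 on the log2 scale in the mutant and -2.67 ± 0.35 in wild type (adjusted p = 1.27e-05 and 4.71e-05). The neighbouring row AT2G11140, also of the 142, rose with ABA in wild type (0.73 ± 0.21, adjusted p = 0.0096) and was not called in the mutant (0.37). AT5G35777 had 3.91, 1.88 and 1.97 CPM in ABA-treated mutant against 10.9, 13.3 and 13.0 CPM in untreated mutant, and 0.789, 1.43 and 1.03 CPM in ABA-treated wild type against 7.17, 4.68 and 5.65 CPM in untreated wild type. It fell, at -2.26 ± 0.28 and -2.42 ± 0.31 on the log2 scale in the mutant and in wild type.

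AT4G01490 had 0.952, 0.916 and 1.06 CPM in ABA-treated mutant against 5.29, 5.58 and 5.6 CPM in untreated mutant, and 0.345, 1.0 and 1.2 CPM in ABA-treated wild type against 2.39, 1.35 and 4.09 CPM in untreated wild type. AT4G01490 fell, at -2.48 ± 0.40 on the log2 scale in the mutant and -1.60 ± 0.41 in wild type (adjusted p = 0.000328 and 0.00576). AT5G10850 had 0.501, 0.305 and 0.798 CPM in ABA-treated mutant against 0.73, 1.67 and 2.27 CPM in untreated mutant, and 0.444, 0.956 and 0.903 CPM in ABA-treated wild type against 3.09, 3.63 and 3.49 CPM in untreated wild type. It fell in both, at -2.13 ± 0.40 in wild type and -1.56 ± 0.44 in the mutant, where the call was lost without mutant untreated replicate 3 (-1.19, adjusted p = 0.0672) or mutant ABA replicate 2 (-1.28, 0.0553). AT3G13270 fell, at -1.66 ± 0.43 in the mutant and -1.78 ± 0.48 in wild type. AT1G65485 almost vanished with ABA, with counts of 0, 0 and 2 in ABA-treated mutant against 30, 35 and 24 in untreated mutant, and 0, 0 and 1 in ABA-treated wild type against 3, 7 and 8 in untreated wild type. The ratio of untreated to ABA was 43.4 in the mutant, a value that the limit on counts favoured. In wild type it was 23.2 (95% exact counting interval 3.66 to 966). AT4G20730, with most of its counts in untreated wild type, had 1.34, 1.66 and 1.26 CPM there, against 0.0986, 0.287 and 0.129 CPM in ABA-treated wild type, a log2 fold change of -3.01 ± 0.52 that the limit on counts favoured. Over 73.7% of its length AT4G20730 is similar to other annotated loci, with its best match in the pseudogene AT4G20510 at 98.03% identity. With the length and GC correction AT5G10850 had -1.24 in wild type and kept the call.

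The rows that rose with ABA in wild type were long and poorer in GC, and those that fell were shorter and richer. The 30 that rose had a median length of 4174 bases and a median GC content of 40.2%, the 33 that fell 1845 bases and 44.0%, and the 78 not called 2397 bases and 41.3%. In the mutant the lengths were 4492 bases for the 16 that rose and 2299 for the 27 that fell, with GC at 40.4% and 42.7%. No test was made of these medians. Lengths and GC contents by direction of change were not taken over all tested rows, so the pattern is not shown to be particular to these. The 33 that fell in wild type include 7 Sadhu elements. The 30 that rose count the copies AT1G58889 and AT1G59265 separately, and rows that entered through 1 group were kept. The nearest annotated genes moved either way. Of 40 tested neighbours of rows that rose in wild type, 12 rose, 12 fell and 16 were not called. Of 39 neighbours of rows that fell, 10 fell, 10 rose and 19 were not called. In the mutant, 9 of 25 neighbours of rows that rose also rose and 2 fell, and of 31 neighbours of rows that fell 4 fell and 6 rose. Over all tested rows, 25.2% rose and 28.2% fell with ABA in wild type, and 21.5% rose and 21.1% fell in the mutant. The counts of neighbours in wild type lie near these shares. No test was made of these counts, and some rows share a neighbour.

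Between the untreated genotypes, 15 of 141 rows were higher in the mutant and 16 lower, 22.0% in all, against 8.77% and 14.8%, 23.6% in all, of the rows tested. The median log2 difference was 0.10, against 0.01 over all rows. Without the 16 rows that entered through 1 group, 14 of 126 were higher and 14 lower. Of the 16 lower rows, 8 were Sadhu elements, 1 was MUG7 and 7 had no name. The 15 higher rows held 14 without a name and AT1G43675, which has similarity to a non-LTR retroelement protein. AT1G43675 had 13.3, 6.72 and 4.75 CPM in untreated mutant against 3.38, 3.2 and 3.97 CPM in untreated wild type (log2 fold change 1.22 ± 0.36, adjusted p = 0.0287). That call was lost without wild type untreated replicate 1 (1.19, adjusted p = 0.0806), replicate 2 (1.20, 0.0773) or replicate 3 (1.31, 0.0523), or without mutant untreated replicate 1 (0.71, 0.152).

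The number of higher rows depended on single libraries. It was 4 without mutant untreated replicate 1, and 7, 6 and 7 without wild type untreated replicate 1, 2 and 3. Of the 14 higher rows that did not enter through 1 group, AT4G07507 and AT5G35777 stayed called in all 12 fits that left out 1 library. AT5G35777, whose levels are given above, was higher in the untreated mutant by 1.09 ± 0.27 (adjusted p = 0.0121). AT4G07507 had 34.5, 29.9 and 26.3 CPM in untreated mutant against 17.1, 15.9 and 19.5 CPM in untreated wild type (0.79 ± 0.17, adjusted p = 0.00685), and 0.34 with the length and GC correction (adjusted p = 0.129). AT1G47565 was higher by 0.74 ± 0.18 (adjusted p = 0.0122), lost without mutant untreated replicate 1 (0.60, 0.0515). Of the 14 lower rows, 8 stayed called in all 12 fits, namely AT5G14830, AT5G35935 and 6 Sadhu elements. With the length and GC correction 10 rows were lower, and the difference of AT5G14830 was 0.09 with it and -1.30 ± 0.32 without it.

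Under ABA, 4 of 141 rows were lower in the mutant and none was higher, 2.84% in all, against 0.178% lower, 1.61% higher and 1.79% in all of the rows tested. With an unadjusted p under 0.05, 14 were lower and 5 higher, against 1178 lower and 1618 higher of the 21322 rows tested. DESeq2 and the length and GC correction each called 1 row higher, AT5G35777 (1.25 and 1.35). DESeq2 also called SADHU1-1 lower (-1.25, adjusted p = 0.0217). The 4 lower rows were AT5G35935, SADHU3-2, AT5G24915 and AT3G15310. The first pair was lower in the mutant without ABA as well, 2 of the 16 lower rows there and 2 of the 4 under ABA. The comparison of untreated genotypes rests on other libraries.

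**Figure D5:**
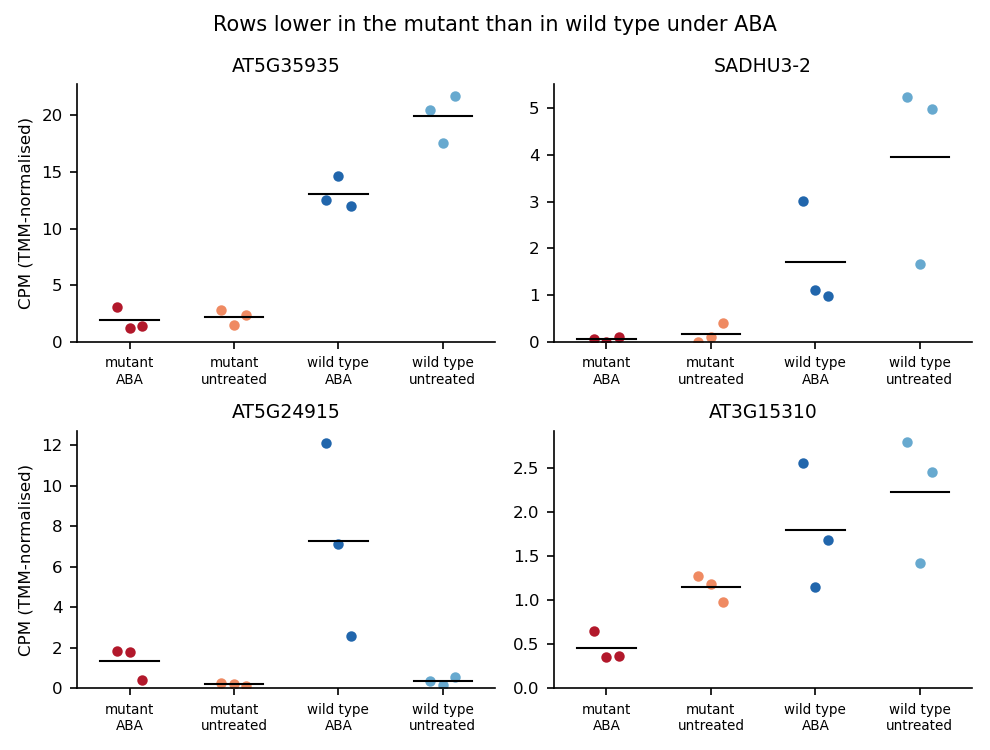
Level in TMM-normalised CPM of the 4 rows that were lower in the mutant than in wild type under ABA, with 1 point per library, the group mean as a bar and an axis of its own for each row. AT5G35935 and SADHU3-2 are lower in both mutant groups than in both wild type groups, without overlap. AT5G24915 is high in ABA-treated wild type, and the mutant ABA points of all 4 rows lie below the wild type ABA points.

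AT5G35935 had 3.06, 1.22 and 1.44 CPM in ABA-treated mutant against 12.5, 14.6 and 12.0 CPM in ABA-treated wild type, and 2.8, 1.48 and 2.35 CPM in untreated mutant against 20.5, 17.6 and 21.7 CPM in untreated wild type. All 6 mutant libraries lay below all 6 wild type libraries. AT5G35935 was lower in the mutant, at -2.77 ± 0.30 (log2) under ABA (adjusted p = 0.000341) and -3.18 ± 0.30 without (adjusted p = 2.89e-05). Both calls held in all 12 fits that left out 1 library and under every other setting tried, and with the length and GC correction the values were -2.89 under ABA and -3.82 without. The row is 1 exon of 6504 bases with no similar and no overlapping locus. Its right neighbour AT5G35940 was higher in the untreated mutant (1.08, adjusted p = 0.0322) and was not called under ABA. AT5G35935 was not called for ABA, with -0.20 ± 0.32 in the mutant and -0.61 ± 0.26 in wild type (adjusted p = 0.65 and 0.0619), but in wild type it was with the length and GC correction (-1.13, adjusted p = 0.00206).

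SADHU3-2, of which the annotation says that some natural accessions carry a methylated, silenced allele, had counts of 1, 0 and 2 in ABA-treated mutant against 61, 23 and 23 in ABA-treated wild type. Without ABA it had 0, 2 and 9 counts in the mutant against 90, 27 and 83 in wild type. The groups did not overlap in either condition. Under ABA the ratio of wild type to mutant was 32.3, with a 95% exact counting interval of 10.8 to 159. The fitted log2 fold change was -4.87 ± 0.98 (adjusted p = 0.0228), and -4.41 ± 0.74 for the untreated genotypes (adjusted p = 0.00131). The call under ABA was lost without wild type ABA replicate 1 (-4.18, adjusted p = 0.0723) or mutant ABA replicate 1 (-4.85, 0.103), replicate 2 (-4.33, 0.105) or replicate 3 (-5.74, 0.0545). The untreated difference kept its call in each of the 12 fits, at -6.06 without mutant untreated replicate 3, and with the length and GC correction (-3.65, adjusted p = 0.00531). Its tested neighbour AT3G42660 was not called in either condition.

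AT5G24915, which rose with ABA in both genotypes, reached 1.85, 1.78 and 0.426 CPM in ABA-treated mutant against 12.1, 7.12 and 2.58 CPM in ABA-treated wild type (log2 fold change -2.41 ± 0.54, adjusted p = 0.0397). The call was lost in 9 of the 12 fits that left out 1 library, at -2.70 to -1.83 over those that left out 1 of the 6 ABA libraries other than wild type ABA replicate 3, without which it was -2.81 (adjusted p = 0.00664). AT3G15310 had 0.651, 0.356 and 0.372 CPM in ABA-treated mutant against 2.56, 1.15 and 1.68 CPM in ABA-treated wild type (log2 fold change -1.94 ± 0.39, adjusted p = 0.0237). That call was lost without wild type ABA replicate 1 (-1.61, adjusted p = 0.0878), mutant ABA replicate 2 (-1.79, 0.118) or mutant ABA replicate 3 (-1.82, 0.0859). Over 76.0% of its length AT3G15310 matches another annotated pseudogene, AT5G32621, at 97.96% identity in its best match. For the whole comparison the count of lower rows was 1 without wild type ABA replicate 1, 2 without mutant ABA replicate 1, and 1 without mutant ABA replicate 2 or 3.

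The ABA response of no row differed between the genotypes in edgeR's test of that difference, against 1.8% of all rows tested. At an unadjusted p under 0.05, 7 of 141 rows had a more positive response in the mutant, SADHU10-1 among them. A more negative response was found in 3. Of the 21322 rows tested, 1983 were more positive and 626 more negative. DESeq2 called SADHU1-1 and AT3G42806. AT3G42806 had 7.01, 9.16 and 7.45 CPM in ABA-treated mutant against 13.2, 11.6 and 12.1 CPM in untreated mutant, and 5.77, 5.88 and 7.61 CPM in ABA-treated wild type against 19.8, 24.7 and 15.9 CPM in untreated wild type. It fell in both genotypes, at -0.65 ± 0.18 in the mutant and -1.64 ± 0.19 in wild type, and the difference of 0.999 ± 0.26 had an adjusted p of 0.0771 in edgeR and 0.0253 in DESeq2. Its fall in the mutant was not called without mutant ABA replicate 1 (-0.57, adjusted p = 0.0608). Without wild type untreated replicate 3, edgeR called the difference of AT3G42806, and without mutant untreated replicate 3 that of SADHU1-1. AT3G42806 was named after its values were seen. Over the 4 pairwise comparisons, 80 rows were called at least once and 61 in none.

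The genes that keep such elements silent were measured from a list. Of 14 genes of DNA methylation upkeep and heterochromatin, 1 rose and 6 fell with ABA in wild type, and 1 rose and 5 fell in the mutant. The shares called, 7 of 14 and 6 of 14, are near the 53.4% and 42.5% of all rows. In the mutant 2 rose and 3 fell with the length and GC correction. VIM3, which binds methylated CG sites for the upkeep of their methylation, had -1.19 ± 0.21 in wild type and -0.62 ± 0.21 in the mutant, and CMT3, the non-CG methyltransferase, -0.74 ± 0.15 and -0.56 ± 0.15. The chromatin remodeller DDM1 fell, at -0.60 ± 0.16 in wild type and -0.61 ± 0.16 in the mutant. Medians of the list were -0.49 and -0.40, against -0.03 and 0.00 over all rows. Of 16 genes of RNA-directed DNA methylation, 3 rose and 3 fell in wild type, and 3 rose and 2 fell in the mutant, 37.5% and 31.2% of the list and below the shares of all rows. DRM2, which sets new methylation, rose by 0.70 ± 0.14 and 0.60 ± 0.14, SUVH9 by 0.75 ± 0.14 and 0.57 ± 0.14, and AGO6 fell in the mutant (-0.77 ± 0.19).

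A list of 5 demethylation genes held ROS1, DME, DML2 and DML3 for DNA and IBM1 for histones. Of these, ROS1 and DML3, DNA glycosylases that remove methylcytosine, rose with ABA in both genotypes and none fell. That is a share of 2 in 5, against 53.4% of all rows in wild type and 42.5% in the mutant. ROS1 rose by 0.76 ± 0.20 in wild type and 0.54 ± 0.20 in the mutant, and DML3 by 1.11 ± 0.28 and 0.89 ± 0.27. With the length and GC correction 1 of the 5 rose and 1 fell in wild type. Of 5 genes of small RNA silencing, 2 rose and 1 fell in wild type, near the share of all rows, and none was called in the mutant, where 3 rose with the length and GC correction. Of 4 genes of nonsense-mediated decay, 2 rose in wild type, also near that share, and none was called in the mutant, where 1 rose with the correction. Between the untreated genotypes 23.6% of all rows were called. Of the listed silencing genes VIM3 (-0.72 ± 0.21), the histone deacetylase gene HDA6 (-0.69 ± 0.21), SUVH2 (-0.61 ± 0.19) and SGS3 (-0.49 ± 0.15) were lower in the untreated mutant and no listed gene was higher. These were 2 of 14 genes of methylation upkeep, 1 of 16 of RNA-directed methylation and 1 of 5 of small RNA silencing. The shares, 14.3%, 6.25% and 20.0%, lie below that of all rows, and the other lists had none. With the length and GC correction no gene of the methylation or RNA-directed lists was called between the untreated genotypes. Under ABA no listed gene was called between genotypes, against 1.79% of all rows.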

How the data were processed

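Polyadenylated RNA of seedlings was sequenced from stranded mRNA libraries, per the labels' protocols, in 4 groups of 3. The deposited file holds raw counts per gene for 12 libraries. Per the submitters' processing notes, Trim Galore 0.3.3, edgeR and the TAIR10 build were used. The aligner, the counter and the use of strand are not given in these sources, and multiply mapping reads may have been dropped or shared. Columns were assigned by name to their group, and all 12 were used. Library totals ran from 14691544 to 22477294 counts.

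filterByExpr, run by group, kept 21322 rows, which were scaled with TMM factors. One edgeR 4.0.16 quasi-likelihood model in R 4.3.3 had a mean per group and gave 5 comparisons (ABA against untreated in each genotype, mutant against wild type untreated and under ABA, and the interaction). A row was called at a Benjamini-Hochberg adjusted p under 0.05 over all tested rows. Standard errors are the absolute log2 fold change over the square root of F. Levels are TMM-normalised CPM. Shares of counts were compared with exact permutation tests. The workflow was tested on simulated data.

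In each comparison, up to 8 called rows that rose most and 8 that fell most were named, where the higher group reached 1 CPM and replicates did not overlap. The 8 most abundant rows, all Sadhu and MUSTANG rows and the 4 listed silencing genes with the smallest adjusted p were added. SADHU rows, MUSTANG rows, AT2G01840, AT2G11140, AT3G42806, AT4G07507, ROS1 and DML3 were named in part after their values were seen. The members and gene lists were chosen with earlier results of these data known. Names, length, GC content, neighbours and similarity (BLAST+ 2.17.0, at least 95% identity over 100 bases) come from RefSeq's TAIR10.1 annotation by locus tag, which matched 142 of 142 rows. Positions and sequences are not given, because the builds named differ. Replicate numbers did not pair the libraries. Of 18 pairs with the same number, 6 had residual correlations above 0.1, over -0.363 to 0.537. Alternatives were DESeq2 1.42.0, RLE and upper-quartile factors, no filter, a replicate block, a loess correction for length and GC content, limits of 50 and 200 counts, each library left out, and 2 libraries left out together. Counts without the 16 rows that had fewer than 75 counts outside their highest group were added after seeing the data.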

Additional observations from a re-analysis of the deposited data

How the results depend on the processing

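Of 78 calls of named rows under 19 settings, 1286 of 1482 values kept direction and side of the limit and 195 lost the call. The 1 that turned was AT5G14830 between untreated genotypes, at 0.086 with the length and GC correction, and the cause was not tested. Most of these rows were named because they were called in these same data, and some, such as SADHU10-1 and AT1G65485, entered through 1 group. Some settings left out a library of neither group compared. The tally is thus a description and no measure of how well the calls would repeat. Without the 3 rows with the most counts, the difference in share of counts for ABA in wild type was 0.0009 percentage points, against 0.0134 with them. For ABA in the mutant it was then -0.0047 points, between untreated genotypes 0.0055 and between genotypes under ABA -0.0002. With 1 library left out, the share differences ran over 0.0054 to 0.0188 (ABA, wild type), -0.0073 to 0.0125 (ABA, mutant), 0.0037 to 0.0171 (genotypes, untreated) and -0.009 to 0.0108 points (genotypes, ABA). Rows higher and lower then numbered 23 to 31 and 25 to 32 for ABA in wild type, and 9 to 22 and 15 to 28 in the mutant. They numbered 4 to 16 and 12 to 17 between untreated genotypes, 0 to 0 and 1 to 5 under ABA, and 0 to 1 and 0 to 0 for the interaction. With wild type untreated replicate 2 and mutant ABA replicate 3 both removed, chosen after seeing the data, 25 rose with ABA in the mutant, 6 were higher and, under ABA, 2 lower in the mutant than in wild type, and 1 was called in the interaction. The length and GC correction gave 10 lower rows between untreated genotypes and 1 higher under ABA. DESeq2 gave 1 higher under ABA and 2 in the interaction. The replicate block gave 15 higher and 23 lower for ABA in the mutant and 13 and 15 between untreated genotypes, and moved no count by over 1.5 times. In rows below 1 CPM the few counts per library limit what could be detected.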

Other observations

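Some rows varied widely between replicates of 1 group. In untreated wild type, AT4G16870 had 10.3, 32.9 and 57.7 CPM from lowest to highest library, AT2G04460 1.02, 1.92 and 6.59 CPM, and AT2G04135 0.24, 0.291 and 3.14 CPM. EXT11, a pseudogene of the extensin family by its name, had 22.3 CPM in 1 library of untreated mutant and 27.9 CPM in 1 of untreated wild type, against 7.14 to 8.68 CPM in the other 4 untreated libraries. EXT11 had 6.21, 4.17 and 3.62 CPM in ABA-treated mutant and was called lower there than in untreated mutant (log2 fold change -1.46 ± 0.55, adjusted p = 0.0486). That call was lost in 6 of the 12 fits that left out 1 library, at -0.79 (adjusted p = 0.279) without mutant untreated replicate 3, and with DESeq2, the replicate block and the length and GC correction. AT2G01840 had 11.2 CPM in mutant untreated replicate 2 and at most 0.0583 CPM in any other library.

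Neighbouring rows of the 142 were rare. AT3G21010, AT3G21020 and AT3G21030 lie next to each other. With ABA in wild type the first pair fell, at -1.21 ± 0.24 and -0.94 ± 0.37 on the log2 scale. AT3G21020 kept its call only without wild type untreated replicate 1 or wild type ABA replicate 3 among the fits that left out 1 library. Without wild type ABA replicate 1 it had -0.61 (adjusted p = 0.145). The call was also lost without the filter on low counts (adjusted p = 0.054) and with the length and GC correction (0.0547). In the mutant its call (-0.92) was lost without any 1 of the mutant libraries. AT3G21030 had -0.07 ± 0.59 and was not called. Of Sadhu elements below the limit of 100 counts, SADHU6-1 had 15 counts over the 12 libraries and SADHU2-1 had 6, and of MUSTANG genes MUG4 had 57.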
